A study of Rattus norvegicus with 12 samples.

Results

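The genes described are 8 genes of cholesterol synthesis and its sterol feedback: Hmgcs1, Idi1, Fdps, Fdft1, Sqle, Lss, Cyp51 and Insig1. They were taken by symbol from the 17571 genes that 2 gene tables of an RNA sequencing series in rat cells have in common, and all 8 were found in both tables and in all 12 libraries. Series and labels describe wild-type bone marrow mesenchymal stem cells (BMSCs) that all groups kept in low-glucose DMEM with chondrogenic induction medium. BMSC-C is the control of the first comparison. For BMSC-CT the cells were given CTGF, connective tissue growth factor, over 1 week and TGF-β1 after it, both signals that promote matrix formation. BF-C is the control of the second comparison and holds cells labelled as fibrotic BMSCs; the series design speaks of induced fibrotic chondrocytes with and without docetaxel. BF-D holds the docetaxel-treated cells, docetaxel being a drug that stabilizes microtubules. Each group has 3 libraries. Neither the dose and time of docetaxel, nor how the BF cells were made, nor strain and age stand in the labels. The labels also do not say that replicates were separate cultures, so the p-values measure only the spread between these libraries, which may be technical.

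Cholesterol is built from acetyl-CoA. Hmgcs1 makes HMG-CoA, the precursor of mevalonate; Mvd and Idi1 lead on to the isoprene units that Fdps joins into farnesyl diphosphate, the branch point to sterols and to lipid anchors of proteins. Fdft1, Sqle and Lss turn farnesyl diphosphate into squalene, its epoxide and lanosterol, and Cyp51 removes a methyl group from lanosterol. The genes share the transcription factor SREBP2 (Srebf2). When membrane sterols are low, the escort protein Scap carries SREBP2 from the endoplasmic reticulum to the Golgi, where proteases release its active part, and Insig1, itself a target of SREBPs, holds the Scap complex back when sterols are high. In stromal cells, as in others, the pathway supplies membrane sterols and prenyl groups.

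Promoters are shown because SREBP2 works there together with NF-Y and Sp1. They are those of the 3 genes that changed in the first comparison and of Hmgcs1. Of the 8 genes, Hmgcs1 differed most between BF-C and BMSC-C. The sequences are the 250 bases before the RefSeq start site (GRCr8), read 5′ to 3′ on the strand of the gene, and capitals mark the NF-Y box CCAAT or its reverse complement. Insig1 lies at chr4:8057770-8058019 on the minus strand, Fdps at chr2:176804817-176805066 on the minus strand, Idi1 at chr17:66547525-66547774 on the minus strand and Hmgcs1 at chr2:53382054-53382303 on the plus strand.
Insig1: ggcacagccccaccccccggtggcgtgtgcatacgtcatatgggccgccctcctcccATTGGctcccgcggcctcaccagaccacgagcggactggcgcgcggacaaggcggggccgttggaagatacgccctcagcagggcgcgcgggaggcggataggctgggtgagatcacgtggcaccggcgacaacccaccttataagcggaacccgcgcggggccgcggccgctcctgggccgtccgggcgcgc
Fdps: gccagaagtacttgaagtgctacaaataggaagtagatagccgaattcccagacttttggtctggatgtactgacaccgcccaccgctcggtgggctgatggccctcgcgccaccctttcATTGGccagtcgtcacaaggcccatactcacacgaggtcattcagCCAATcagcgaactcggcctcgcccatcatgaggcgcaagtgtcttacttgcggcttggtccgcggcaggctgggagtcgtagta
Idi1: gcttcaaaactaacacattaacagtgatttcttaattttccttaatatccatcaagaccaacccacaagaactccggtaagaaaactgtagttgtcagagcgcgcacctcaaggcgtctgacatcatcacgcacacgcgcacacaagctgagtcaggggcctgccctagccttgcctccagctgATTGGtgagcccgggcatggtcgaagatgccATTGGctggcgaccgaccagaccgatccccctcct
Hmgcs1: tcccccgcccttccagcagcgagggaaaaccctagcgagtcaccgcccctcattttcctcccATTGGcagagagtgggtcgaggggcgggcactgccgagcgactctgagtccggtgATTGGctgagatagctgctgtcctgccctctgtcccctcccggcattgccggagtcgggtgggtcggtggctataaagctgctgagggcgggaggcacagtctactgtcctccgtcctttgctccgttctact
The NF-Y boxes start 193 bases before the start site in Insig1, 130 and 85 bases before it in Fdps, 66 and 35 bases before it in Idi1, and 188 and 133 bases before it in Hmgcs1. The RefSeq table held a promoter for 6 of the 8 genes, and Sqle and Fdft1 had no entry. In windows of 250 bases before to 50 bases after the start, searched on both strands, 5 of these 6 promoters held CCAAT, against 37.5% of 33469 rat promoters, and Cyp51 was the promoter without it. The GC box of Sp1 (GGGCGG) was in 5 of 6, against 33.1%, and Idi1 was the promoter without it. The sterol regulatory element, searched as TCACNCCAC, matched 0 of 6, against 1.12% of all promoters. That says only that these letters are not in these windows. The promoters of the 2 genes that rose and of the gene that fell after CTGF and TGF-β1 all held NF-Y boxes.

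The libraries held 15580310 to 19870047 reads, and 2 of them stood apart. BMSC-CT replicate 3 correlated with replicate 1 of its group at a Pearson r of 0.878 across genes, against 0.974 or more among the BMSC-C libraries. Long genes were low in it relative to the mean of its group. The Spearman rho of this deviation with gene length was -0.40, against 0.38 and 0.32 in BMSC-CT replicates 1 and 2. Deviations from a mean of 3 libraries sum to 0, so rho alone does not tell which library is off. Ribosomal protein genes held 15.5% of the reads of replicate 3, against at most 6.65% in the other BMSC libraries. BF-D replicate 2 leaned the same way (rho -0.36, against 0.27 and 0.26 in BF-D replicates 1 and 3). Chondrocyte markers were near 0 in every group, with at most 0.00563% of reads. Acan had 0 to 6 reads per BMSC library, and Col2a1 had 0 to 10 per BF library. Of 17 macrophage markers, 15 to 17 had reads in the BMSC libraries, and together they took 0.866% to 1.04% of reads in BMSC-C and 1.00% to 1.33% in BMSC-CT. Their sum hides opposite moves: Adgre1 lay at 2866 to 3393 RPM (reads of a gene when the reads of a library are scaled to 1000000) in BMSC-C and 356 to 1267 in BMSC-CT, and Lyz2 at 3796 to 4541 and 6894 to 9299. The BF table holds 13 of the 17, of which 11 to 13 had reads, and their share ran from 0.00414% to 0.00636%. All 10 stromal markers were in both tables; BMSC-C had 0.368% to 0.407% of reads on them, BMSC-CT 0.0892% to 0.210%, and the BF libraries 0.502% to 0.594%. The 8 adipocyte markers, of which 6 to 8 had reads, took 0.0506% to 0.0735% of reads in BMSC-C, 0.0098% to 0.0175% in BMSC-CT and 0.0898% to 0.112% in the BF libraries. Adipoq among them had only 0 to 3 reads per library, so nearly all of that share came from the other markers of the list. The 6 endothelial markers, 3 or 4 of them in a table, took at most 0.0086%. In bulk libraries, fewer cells of a type and less RNA per cell cannot be told apart, and what part these markers and libraries have in the results below was not tested.

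After CTGF and TGF-β1, Insig1 and Fdps rose, Idi1 fell, and the other 5 genes did not pass the test, so the 8 genes did not move in 1 direction. By limma on log2(normalized count + 1), with Benjamini-Hochberg adjustment over 16818 genes and a call at an adjusted p under 0.05, 2 of the 8 genes were higher and 1 was lower in BMSC-CT. Of all genes 18.6% were called, 7.7% higher and 10.9% lower. An unadjusted p under 0.05 was found for 3 of the 8 genes, against 38.6% of all. The groups did not overlap for 4 of the 8 genes, against 52.2% of all genes: 3 were higher (23.3% of all genes) and 1 was lower (28.9%). The unadjusted and no-overlap counts are near the background. The median log2 difference of the 8 genes was 0.26, and that of all genes was -0.15.

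Insig1, the sterol-regulated anchor of Scap, had the clearest change. Its normalized count was 8273, 6394 and 5894 in the 3 BMSC-CT libraries and 1781, 1809 and 1837 in the BMSC-C libraries. The treated libraries all lay above the controls, which differed little among themselves. The log2 difference was 1.91 (SE 0.20, limma adjusted p = 0.0023), and over 16 alternatives it ran from 1.48 to 2.13 with an adjusted p of 0.0331 at most.

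Fdps, which makes farnesyl diphosphate, rose as well. Its normalized count was 3874, 4353 and 9635 in BMSC-CT and 1603, 1513 and 1970 in BMSC-C. No treated library reached down to the controls, but replicate 3 was far above the other BMSC-CT libraries. The log2 difference was 1.70 (SE 0.37, limma adjusted p = 0.0266), and it was 1.29 without replicate 3 and remained called. The call was lost with 5 libraries when BMSC-CT replicate 2 was left out (limma adjusted p = 0.0631), or BMSC-C replicate 1 (0.115), 2 (0.119) or 3 (0.0750), with the log2 difference between 1.62 and 1.86. RefSeq lists 5 pseudogene copies of Fdps and 1 of Cyp51 that neither table holds, so reads of near-identical copies may be counted in their values.

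Idi1, the isomerase just before Fdps, went the other way. Its normalized count was 56.1, 24.3 and 16.1 in BMSC-CT and 148, 158 and 88.4 in BMSC-C. All treated libraries were below all controls, at the lowest level of the 8 genes. The log2 difference was -2.14 (SE 0.53), with a limma adjusted p of 0.0379. This call was lost with libraries scaled to total reads (-2.55, adjusted p = 0.0508). It was also lost when BMSC-CT replicate 2 was left out (limma adjusted p = 0.108) or BMSC-C replicate 1 (0.154), 2 (0.156) or 3 (0.0797), where the log2 difference ran from -2.40 to -1.99. Idi1 has 1 pseudogene copy in RefSeq that is not in the tables, and its paralog Idi2 had 0 to 7 reads per library.

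Lss, which closes the sterol rings, split the treated libraries. Its normalized count was 1167, 1214 and 216 in BMSC-CT and 437, 561 and 613 in BMSC-C. Replicates 1 and 2 of BMSC-CT lay above all controls and replicate 3 below all of them. With all 6 libraries the log2 difference was 0.34 (95% interval -1.27 to 1.95, limma adjusted p = 0.719). Without BMSC-CT replicate 3 it was 1.16 and called (adjusted p = 0.0013); without replicate 1 it was -0.054, and without replicate 2 it was -0.082.

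The other 4 genes gave differences that missed the threshold. Fdft1, squalene synthase, had 997, 967 and 1388 normalized counts in BMSC-CT and 720, 718 and 856 in BMSC-C, so that the groups were separate, with a log2 difference of 0.53 (limma adjusted p = 0.131). Hmgcs1, the first committed step, had 336, 202 and 198 in BMSC-CT and 318, 319 and 349 in BMSC-C, with a log2 difference of -0.46 (95% interval -1.14 to 0.21). In Hmgcs1 2 treated libraries were below all controls and the other lay among them. The log2 difference of Sqle, the epoxidase before Lss, was 0.18 (95% interval -0.32 to 0.67), and that of Cyp51 was 0.16 (-0.31 to 0.64); the groups of both overlapped. These intervals leave room for changes in either direction.

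**Figure D1:**
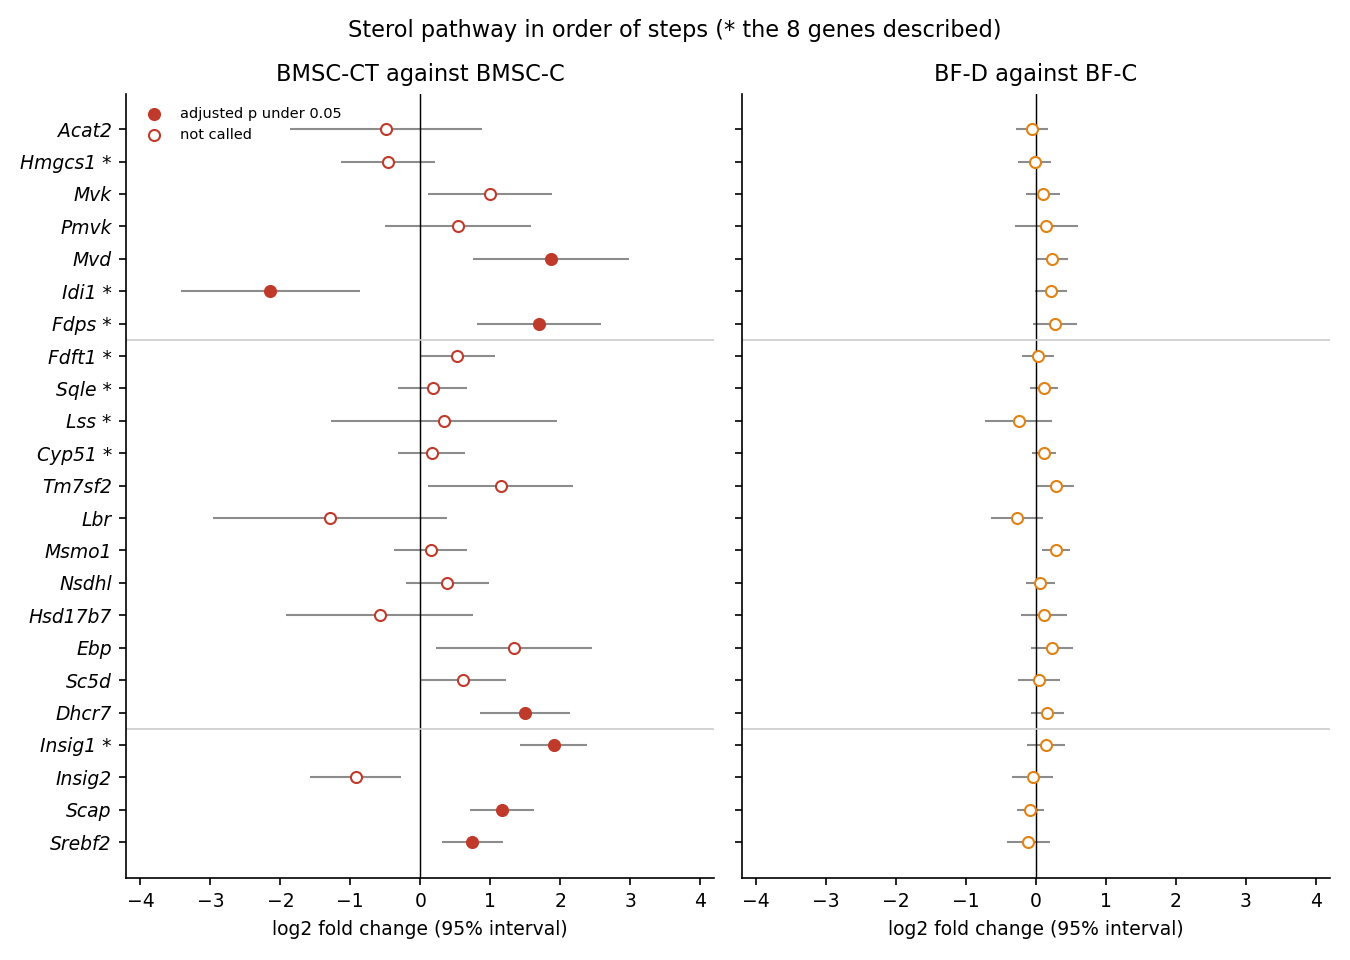
Log2 fold changes (horizontal axis) of 19 sterol synthesis enzymes in the order of their steps, then Insig1, Insig2, Scap and Srebf2, with 95% intervals from limma, for BMSC-CT against BMSC-C (left) and BF-D against BF-C (right); 3 libraries a group, filled points have an adjusted p under 0.05, and grey lines separate mevalonate steps, sterol steps and regulators. On the left, Idi1 at -2.14 lies between Mvd at 1.87 and Fdps at 1.70, and on the right no gene is called.

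The scale of the libraries bears on these directions. BMSC-CT replicate 3 carries the largest factor, 1.61 normalized counts per read, against 0.813 to 1.06 in the other BMSC libraries. With libraries scaled to total reads, the median of all genes moved from -0.15 to -0.55 and that of the 8 genes from 0.26 to -0.16, and Sqle (-0.25), Cyp51 (-0.26) and Lss (-0.078) changed sign. A change of library factors shifts every gene of a comparison by nearly the same log2 amount. Positions relative to the median of all genes are therefore nearly fixed by arithmetic and do not test the directions. Insig1 stood at 2.05 with the authors' factors and 2.03 with total reads, Fdps at 1.84 and 1.82. Idi1 stood at -1.99 with the authors' factors and moved by less than 0.05 with total reads. In that comparison the split of calls over all genes was 1295 higher and 1839 lower with the authors' factors, and 790 higher and 1984 lower with total reads.

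Because scaling cancels in a ratio of 2 genes of the same library, ratios show the uneven change directly. Per length, the log2 ratio of Fdps over Idi1 was 3.63 ± 0.66 (SD, n = 3) in BMSC-C and 7.51 ± 1.56 in BMSC-CT. The log2 ratio of Insig1 over Sqle went from 1.11 ± 0.06 to 2.84 ± 0.09, and that of Insig1 over Cyp51 from 1.41 ± 0.12 to 3.16 ± 0.05. Insig1 over Hmgcs1 went from 2.87 ± 0.06 to 5.25 ± 0.19, also with no overlap. The ratio of Insig1 over Fdps overlapped between the groups, at 0.42 ± 0.18 and 0.63 ± 0.93. A two-sided exact permutation test of 3 against 3 libraries has 0.1 as its smallest p, which it gives only where the groups do not overlap. Of the 13 ratios computed, 9 reached it, with a Benjamini-Hochberg adjusted p of 0.144. Each of these 9 holds Insig1, Fdps or Idi1, the 3 genes called above, so they are not separate results. The share of all gene pairs without overlap was not computed, and 52.2% of single genes were without overlap in this comparison. After docetaxel, only the ratios of Insig1 over Hmgcs1 and over Lss were without overlap, among the same 13. Of single genes 16.8% were without overlap there.

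Genes around these 8 were read from lists of 46 further sterol genes. Of the 14 other synthesis enzymes, 3 rose and 0 fell, among them Mvd, which makes isopentenyl diphosphate (log2 1.87, limma adjusted p = 0.0375), and the late enzyme Dhcr7 (1.50, limma adjusted p = 0.0146). Of all genes 7.7% rose and 10.9% fell. The median of these 14 was 0.57. With total-read scaling, or with 1 of BMSC-CT replicate 2 and BMSC-C replicates 1 and 2 left out, Dhcr7 was not called, and Mvd was not called without any 1 of BMSC-CT replicate 2 and the 3 controls.

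Of the 9 genes of the SREBP machinery, 3 rose and 0 fell, against 7.7% and 10.9% of all genes. Another 4, not called, were lower without overlap, against 28.9% of all genes. Srebf1, which encodes the SREBP1 factors of fatty acid synthesis, went from a mean of 930 ± 205 normalized counts (SD, n = 3) to 27998 ± 3714, a log2 difference of 4.93 (limma adjusted p = 0.00022) that was called in all 16 alternatives. The median of the 9 was -0.45, so the list as a whole did not follow them. Scap rose by 1.17 (limma adjusted p = 0.0106), and was not called with total-read scaling or without any 1 of BMSC-CT replicate 2 and BMSC-C replicates 1 and 2. Srebf2 rose by 0.74 (adjusted p = 0.0367), a call that 8 of 16 alternatives did not give: total-read scaling, edgeR, the replicate block, and every library left out except BMSC-CT replicate 3. Insig2, the paralog of Insig1, gave -0.93 with groups that did not overlap (limma adjusted p = 0.0579), and was called in 4 of 16 alternatives. Mbtps2, a protease that releases SREBPs, had 231, 177 and 111 normalized counts in BMSC-CT and 480, 401 and 313 in BMSC-C. It gave -1.24 (limma adjusted p = 0.0516) and was called in 6 of 16 alternatives, the replicate block among them (-1.24, limma adjusted p = 0.0396).

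Of 6 genes of sterol uptake and trafficking under SREBP2, 3 rose and 0 fell, against the same shares of all genes. Among them were the lysosomal sterol carrier Npc2 (log2 2.16, limma adjusted p = 0.0212) and Tmem97 (1.76, limma adjusted p = 0.0351). Npc2 had 37029, 46275 and 111633 normalized counts in BMSC-CT and 11241, 12522 and 15153 in BMSC-C. Both genes were highest in BMSC-CT replicate 3, and neither was called without BMSC-CT replicate 2 or without any 1 control.

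**Figure D2:**
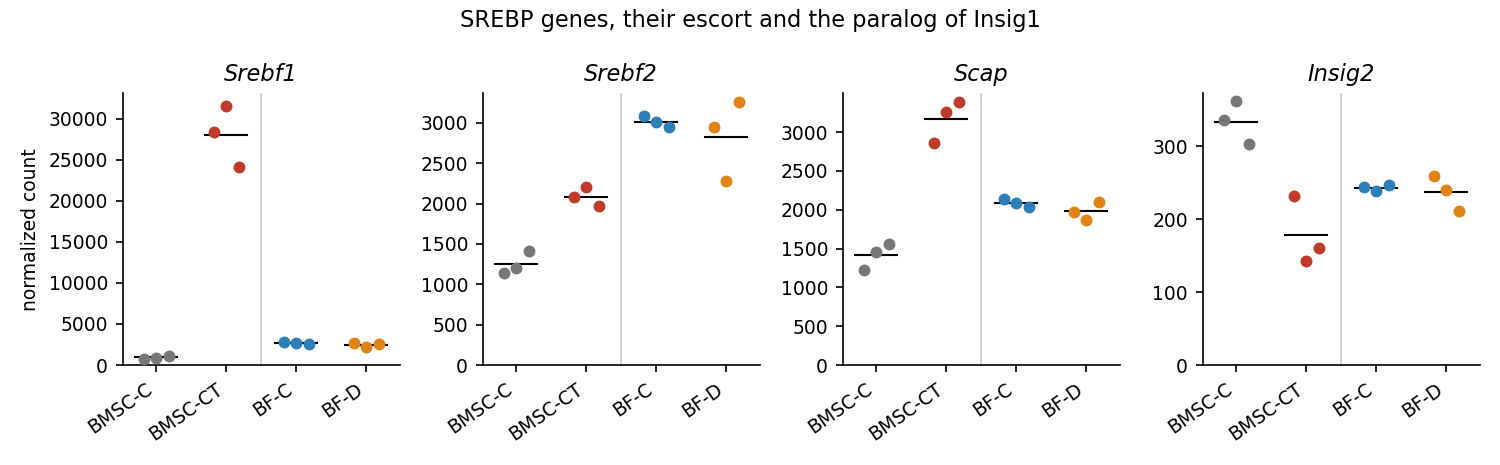
Normalized counts (vertical axes, from 0) of Srebf1, Srebf2, Scap and Insig2 in each library, with a bar at the mean of the 3 libraries of a group; the grey line separates the 2 tables, which were normalized separately, so heights compare only within a side. Srebf1, Srebf2 and Scap lie higher in BMSC-CT than in BMSC-C without overlap, and Insig2 lies lower.

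After docetaxel in BF cells, no difference of the 8 genes passed the test. Of the 8 genes, 0 were called by limma in BF-D against BF-C, 0 had an unadjusted p under 0.05, and edgeR and DESeq2 also called 0. Of 17076 genes tested limma called 0.0117% (0.00586% in each direction), and 6.2% had an unadjusted p under 0.05. The lowest adjusted p of the 8 genes was 0.706. Their log2 differences ran from -0.25 to 0.27 with a median of 0.12, against -0.0044 over all genes. The groups were separate and higher in BF-D for 3 of the 8 genes, against 7.78% of all genes, and lower for 0 of 8, against 9.04%.

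These 3 were Sqle, Idi1 and Cyp51. Cyp51 had 5919, 6048 and 5684 normalized counts in BF-D and 5241, 5451 and 5571 in BF-C, a log2 difference of 0.12 (95% interval -0.06 to 0.30). Idi1 had 904, 919 and 861 against 733, 840 and 729, a difference of 0.22 (-0.0053 to 0.45). Sqle had 2962, 2603 and 2569 against 2412, 2524 and 2548, a difference of 0.12 (-0.09 to 0.32), and its lowest treated library was barely above its highest control.

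In the other 5 genes BF-D replicate 2 often lay apart. Lss had 1771 normalized counts there, against 3014 and 3196 in the other BF-D libraries and 3040, 3108 and 3018 in BF-C, with a log2 difference of -0.25 (95% interval -0.73 to 0.23) that was 0.023 without it. Fdps had 6548 there, against 4906 and 4642 in BF-D and 4172, 4387 and 4653 in BF-C, with a difference of 0.27 (-0.04 to 0.58) that was 0.12 without it. Lss was thus low and Fdps high in this library, as both were in BMSC-CT replicate 3.

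Insig1 had 7913, 5982 and 7437 normalized counts in BF-D and 5974, 6602 and 6506 in BF-C. Replicates 1 and 3 were above all controls, and replicate 2 lay among them. The log2 difference was 0.15 (95% interval -0.12 to 0.42); without BF-D replicate 2 it was 0.27 and called by limma (adjusted p = 0.0139). Hmgcs1 gave -0.02 (-0.25 to 0.22) and Fdft1 0.03 (-0.20 to 0.25), and both overlapped between the groups.

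Of the other 46 sterol genes, limma called 0 after docetaxel. An unadjusted p under 0.05 was found for 7 of them, against 6.2% of all genes. EdgeR called 0 of the 46 and DESeq2 called 1, Apoe. Msmo1, an oxidase of a later sterol step than Cyp51, had a log2 difference of 0.29 (95% interval 0.09 to 0.48, limma adjusted p = 0.706) and separate groups. Without BF-D replicate 2, limma called 4 of the 46, among them Apoe (0.42) and Msmo1 (0.24). In the same fit 264 of 17139 genes were called. The change of the 8 genes under docetaxel was not tested against that under CTGF and TGF-β1.

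**Figure D3:**
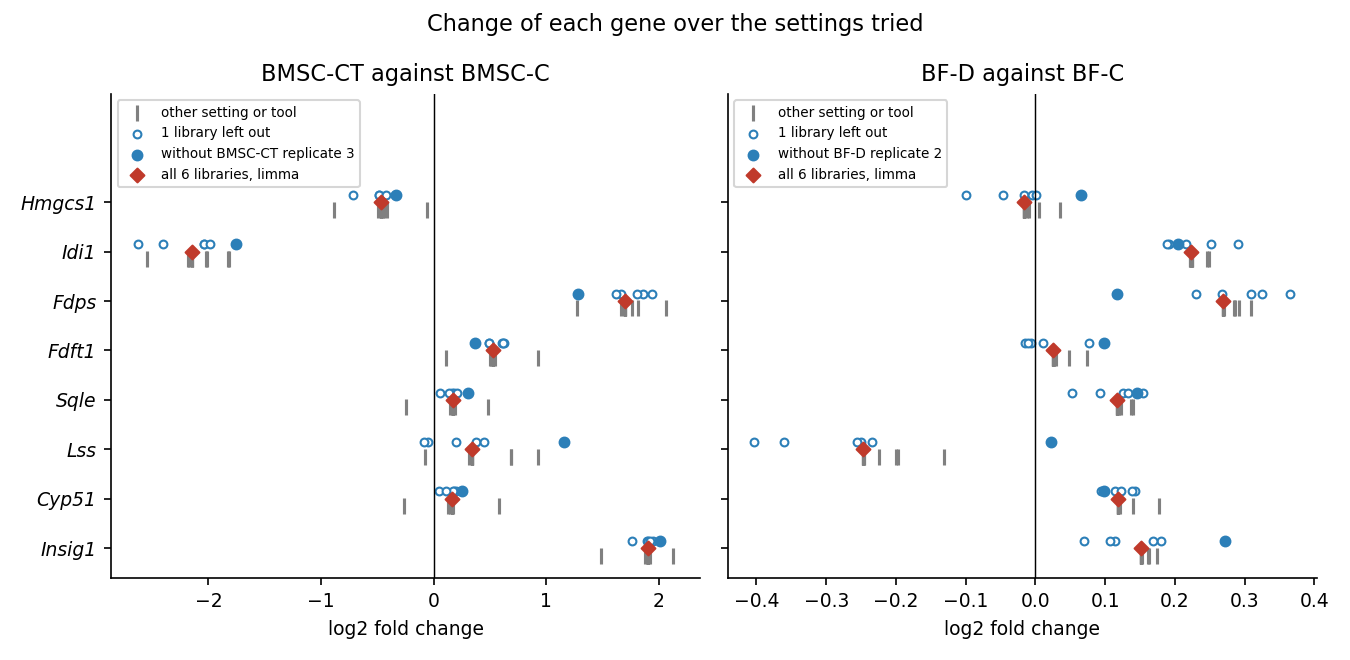
Log2 fold change (horizontal axis) of each of the 8 genes with all 6 libraries by limma (red diamonds), with 1 library left out (blue circles, filled for BMSC-CT replicate 3 on the left and BF-D replicate 2 on the right) and under the other settings and tools (grey bars); the 2 panels have different scales. Insig1 stays between 1.48 and 2.13 on the left, while Lss reaches 1.16 without BMSC-CT replicate 3.

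All 8 genes stood higher in BF-C than in BMSC-C. Values across tables are given as RPM, with no test, since the tables were normalized apart and their cells and treatments differ. Hmgcs1 stood at 315, 334 and 340 RPM in BF-C and at 21.8, 22.1 and 22.9 in BMSC-C, a ratio of means of 14.8. The ratio was 5.09 for Idi1, 5.06 for Cyp51, 5.01 for Lss, 3.09 for Insig1, 2.52 for Fdft1, 2.32 for Sqle and 2.29 for Fdps. Every BF-C library was above every BMSC-C library in all 8 genes, against 29.1% of 11881 genes with at least 1 RPM in both groups. At least 3-fold higher were 5 of the 8, against 4.01%, and the median ratio of all genes was 0.949.

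With all groups taken in, 6 of the 8 genes had all 6 BF libraries above all 6 BMSC libraries, against 13.7% of genes. The exceptions were Insig1 and Fdps, the pair that rose in BMSC-CT. Insig1 reached 517, 370 and 212 RPM in BMSC-CT and 355 to 392 in BF-C. Fdps reached 242, 252 and 346 in BMSC-CT and 248 to 279 in BF-C. Both treated groups spanned the BF-C range, while Idi1 in BMSC-CT (0.579 to 3.50 RPM) was below its lowest BF-C library (43.5).

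Of the 14 other synthesis enzymes, 12 had BF-C above BMSC-C without overlap, against 29.1% of all genes. At least 3-fold higher were 7 of the 14, among them Msmo1 (3.74-fold), against 4.01% of all genes. Of the 9 genes of the SREBP machinery 5 were higher without overlap (29.1% of all genes were), 2 were lower (35.3%), and 0 were at least 3-fold higher. Of the 8 genes of the LXR pathway, which drives sterol export, 1 was higher and 6 were lower without overlap, against the same 29.1% and 35.3%. The macrophage markers given above differ between the same libraries, about 1% of reads in BMSC-C and under 0.01% in BF-C, and their part in these ratios was not tested.

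**Figure D4:**
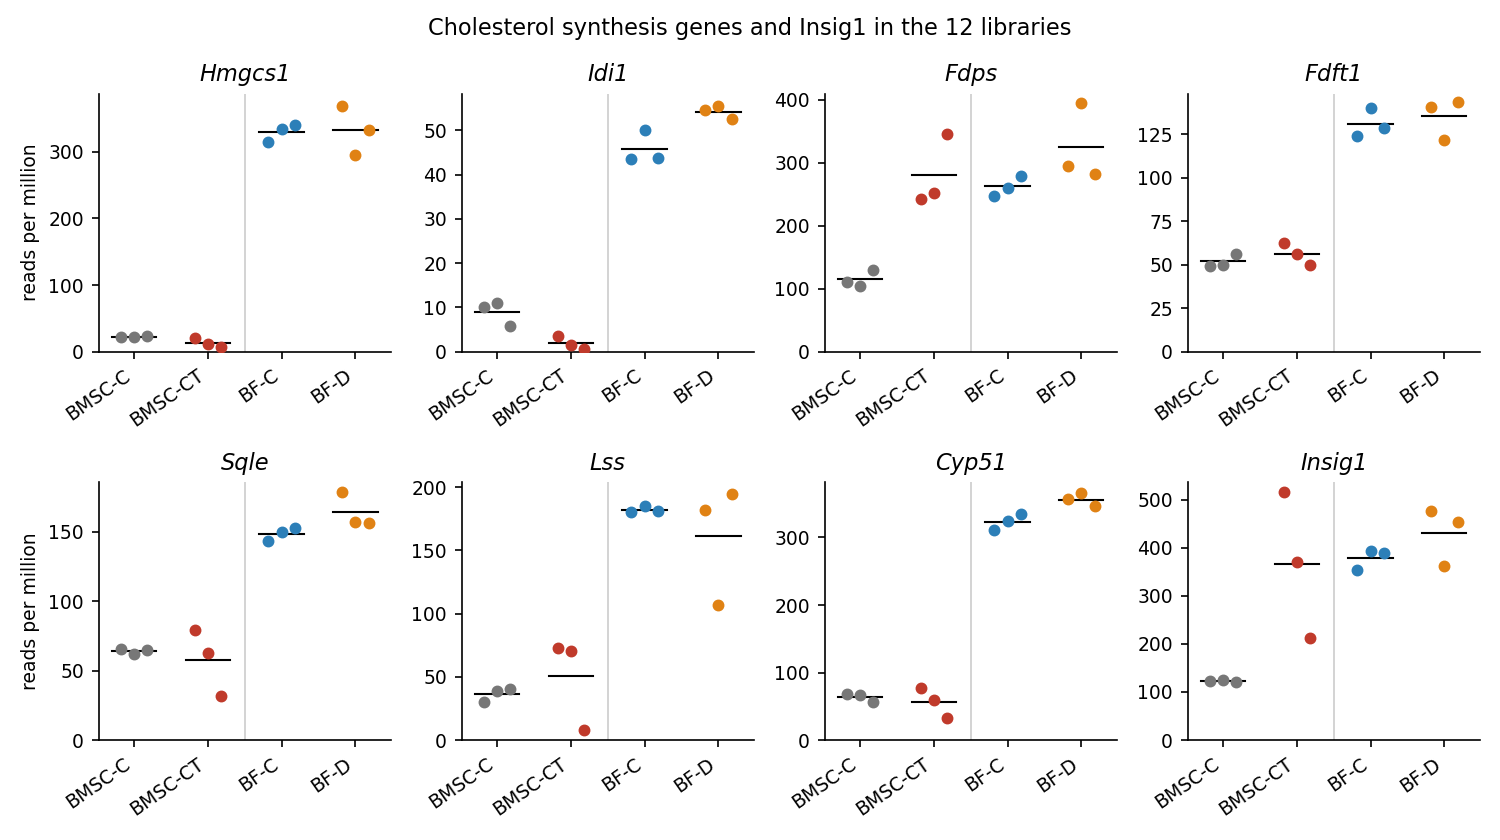
RPM (vertical axes, from 0, a scale for each gene) of the 8 genes in the 12 libraries, with replicates 1 to 3 from left to right and a bar at the mean of each group; the grey line separates the 2 tables. Hmgcs1 is at 21.8 to 22.9 in BMSC-C and at 315 to 340 in BF-C, and Lss is lowest in BMSC-CT replicate 3.

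Per length, the order of the 8 genes differed between BMSC-C and BF-C. In RPKM (RPM per kilobase of gene length), Insig1 was highest in BMSC-C at 50.7 ± 1.02 (SD, n = 3), then Fdps at 38.1 ± 4.27, Sqle at 23.5 ± 0.61, Cyp51 at 19.1 ± 1.78, Fdft1 at 16.4 ± 1.20, Lss at 8.06, Hmgcs1 at 6.92 ± 0.18 and Idi1 at 3.19 ± 0.99. Cyp51 and Fdft1 are neighbours whose libraries overlap (17.1 to 20.4 and 15.7 to 17.8), as are Lss and Hmgcs1. In BF-C, Insig1 was again highest at 157 ± 8.72, followed by Hmgcs1 at 102 ± 4.07, Cyp51 at 96.7 ± 3.42 and Fdps at 87.2 ± 5.21. Hmgcs1 and Cyp51 overlapped there, and Idi1 was lowest at 16.3 ± 1.30. The 8 genes together held 0.0485% ± 0.0010 of BMSC-C reads (SD, n = 3) and 0.0882% ± 0.019 of BMSC-CT reads. That rise lay in Insig1, whose mean went from 123 to 366 RPM, and Fdps, from 115 to 280. The means of Lss (36.4 to 50.3) and Fdft1 (51.8 to 56.1) were slightly higher in BMSC-CT. Those of Sqle, Cyp51, Hmgcs1 and Idi1 were lower. For BF-C the share was 0.180% ± 0.0071, and for BF-D 0.196% ± 0.0098.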

How the data were processed

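RNA sequencing of 12 rat libraries was used as 2 gene tables of 18616 and 19355 genes, with BMSC-CT against BMSC-C and BF-D against BF-C. The submitters' processing notes name Bowtie 0.12.2 and mm8. Since mm8 is a build of the mouse genome while genes carry Ensembl IDs of the rat, no coordinate of the tables is printed; how reads were assigned to genes is not given in the sources used here. Per the file headers the authors deposited 1 signal value per gene and library, a normalized count. Within 0.01, 100% of these deposited values were whole multiples of 1 read, worth 0.813 to 1.61 normalized counts, so reads could be recovered. In the authors' deposited table, which also gives log2 fold changes and p-values, 3 of the 8 genes have an adjusted p under 0.05 in the first comparison and 0 in the second.

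Limma 3.58.1 (R 4.3.3, empirical Bayes with a trend) was run within each table on log2(normalized count + 1), keeping genes whose mean was 1 or more; fold changes on this scale understate changes of low genes. Adjusted p-values are Benjamini-Hochberg over all genes of a table. Beside it stand edgeR 4.0.16 (quasi-likelihood) and DESeq2 1.42.0 on recovered reads, total-read and TMM scaling, filters (none, mean of at least 10), pseudocounts of 0.1 and 10, a replicate block, removal of the trend with gene length, and each library left out. The fit was also run on simulated counts without a trend with gene length and without libraries that stand apart. That run cannot show how the fit handles these features of the data. Where 2 libraries remain in an arm, the spread is pooled over both arms. RPM use the sum of reads over the table.

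The 8 genes and all lists were chosen with earlier results of these data known. Text names the 8 genes, Srebf1, Srebf2, Scap, Insig2, Msmo1, Abca1 and Abcg1, up to 4 genes per list and comparison by smallest adjusted p, and the 5 genes most alike in profile; some genes that this rule names are not reported here, though list counts hold them. Intervals from the fit cover the spread of the libraries only.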

Additional observations from a re-analysis of the deposited data

How the results depend on the processing

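Of the 128 values that 16 alternatives gave for the 8 genes in BMSC-CT against BMSC-C, 113 kept direction and call, 9 lost the call (4 of Fdps, 5 of Idi1), 1 gained it (Lss) and 5 changed sign. In BF-D against BF-C 119 of 128 kept both, 1 gained a call (Insig1) and 8 changed sign. With 1 library left out, limma called 1 to 4 of the 8 genes, 4 to 29 of the 46 other sterol genes (14 with all libraries) and 736 to 7204 of all genes (3134) in the first comparison, lowest without BMSC-C replicate 2 for all genes and highest without BMSC-CT replicate 3 in each case. In the second these were 0 to 1, 0 to 4 and 0 to 264 (2 with all libraries), highest without BF-D replicate 2. DESeq2 called 24 of the other sterol genes and 5504 of all genes in the first comparison, and 1 and 72 in the second. Over all genes of the second, a mean of at least 10 gave 0 calls and removal of the length trend gave 11. The cause was not tested.

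The main fit did not pair libraries by replicate number. Deviations of same-numbered libraries correlated at 0.199, -0.0209 and 0.183 in the first comparison, and those of unlike numbers at -0.225 to 0.0891. In the second comparison the values were 0.0140, 0.0196 and -0.0029, and -0.0348 to 0.0277 for unlike numbers. With the replicate block 3 and 0 of the 8 genes, 16 and 0 of the other sterol genes and 3003 and 0 of all genes were called; among the genes named, the block ended the calls of Srebf2 (limma adjusted p = 0.0649) and Pggt1b (0.0522) and gave calls to Apoe (0.0482) and Mbtps2 (0.0396).

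None of the values below was called with all libraries and the authors' factors. With total-read scaling the log2 differences in BMSC-CT were -0.26 for Cyp51, -0.078 for Lss, -0.27 for Msmo1 and -0.25 for Sqle, and 0.0057 for Hmgcs1 in BF-D. With the length trend removed they were 0.036 for Hmgcs1, 0.029 for Scap and 0.030 for Srebf2 in BF-D; Tmem97 was at 0.010 with edgeR and 0.0083 with DESeq2. With 1 library left out, the range in BMSC-CT was -0.082 to 1.16 for Lss (called without replicate 3) and -0.018 to 0.25 for Msmo1. In BF-D it was -0.015 to 0.10 for Fdft1, -0.10 to 0.065 for Hmgcs1, -0.11 to 0.033 for Insig2, -0.40 to 0.023 for Lss, -0.017 to 0.067 for Mbtps2, -0.017 to 0.27 for Npc2, -0.22 to 0.039 for Srebf2 and -0.23 to 0.085 for Tmem97. Depth limits Idi1 most, at 0.579 RPM in its lowest library.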

Other observations

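Sterol export and the non-sterol branches of the mevalonate pathway were read from lists as well. Of 8 genes of the LXR pathway and cholesterol storage, 3 rose and 1 fell in BMSC-CT, against 7.7% and 10.9% of all genes. The sterol exporters Abcg1 (log2 1.98, limma adjusted p = 0.0037) and Abca1 (1.56, adjusted p = 0.0337) and the receptor gene Nr1h3 (1.50, adjusted p = 0.0391) rose. Abcg1 was called in all 16 alternatives, while Abca1 was lost with total-read scaling and without any 1 library other than BMSC-CT replicate 3. Nr1h3 was lost without BMSC-CT replicate 2 or any 1 control. Ch25h, which makes 25-hydroxycholesterol, fell from 2201, 2197 and 3755 normalized counts in BMSC-C to 550, 647 and 805 in BMSC-CT, a log2 difference of -1.99 (limma adjusted p = 0.0072) called in all 16 alternatives. Apoe gave 1.70 (limma adjusted p = 0.0729), and was called with the replicate block (1.70, limma adjusted p = 0.0482), with DESeq2 (1.95, adjusted p = 0.0062) and without BMSC-CT replicate 1 (2.13, adjusted p = 0.0421) or 3 (1.09, adjusted p = 0.0085). Of 9 genes of the branches to prenylation, dolichol and ubiquinone, 0 rose and 1 fell, against the same shares, namely Pggt1b, a subunit of the enzyme that attaches geranylgeranyl groups (-1.38, limma adjusted p = 0.0326; not called with the replicate block, or without BMSC-CT replicate 2 or any 1 control).

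The 8 genes did not share 1 profile. Over the 12 libraries, with each gene centred within its table, Pearson r with the mean profile of the 8 genes (which holds each member) was 0.943 for Sqle, 0.857 for Cyp51, 0.741 for Insig1, 0.622 for Lss, 0.305 for Fdft1, 0.287 for Fdps, 0.167 for Hmgcs1 and -0.213 for Idi1. Of 12589 genes, the 5 others most like this mean were Drd1 (r = 0.893), Rn60_8_0646.1 (0.887), the sterol desaturase gene Sc5d (0.880), Dusp4 (0.875) and Slc35f5 (0.870). All these points share the libraries and their scaling. In Drd1 and Dusp4, BMSC-CT replicates 1 and 2 were high and replicate 3 was lower: Dusp4 had 2278, 1952 and 386 normalized counts there and 334 to 411 in BMSC-C.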
